A study of Homo sapiens with 14 samples.

Results

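The ETS genes described here are 10 members of that transcription factor family: ETV1, ETV4, ETV5, ETV6, ELK1, ELF1, GABPA, ETS2, ERG and FEV. They were chosen by name from the family, with ETS1 and FLI1 left out, among 19626 protein-coding genes on the autosomes and X (GENCODE release 44, hg38). Earlier results of these data were known when they were chosen. TC-32, an established Ewing sarcoma cell line that carries the EWSR1::FLI1 fusion, labelled WT and left untreated, was profiled in 14 CUT&RUN libraries, an assay in which an antibody directs a nuclease that cuts out the nearby chromatin. An antibody to FLI1 was used in set A (2 libraries) and set B (2 libraries), H3K27ac in set A (2), H3K27me3 and H3K9me3 in set B (2 each), and IgG served as the control (4). What distinguishes the sets is not stated in the labels, and nothing in them says that replicates came from separate cultures, so the spread between libraries may be technical. All libraries come from 1 cell line, none is from cells without the fusion, and an antibody to FLI1 does not by itself tell the fusion from other FLI1 protein.

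ETS proteins share a winged helix domain that binds DNA at a GGAA core, with family members preferring different flanking bases. In Ewing sarcoma the DNA-binding domain of FLI1, itself an ETS protein, is joined to EWSR1, and the fusion binds both single ETS sites and tandem GGAA repeats. ERG, FEV, ETV1 and ETV4 are known as fusion partners of EWSR1 in tumours that lack EWSR1::FLI1. H3K27ac marks active promoters and enhancers, H3K27me3 is deposited by Polycomb repressive complexes, and H3K9me3 marks constitutive heterochromatin.

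The lists of the 4 FLI1 libraries held between 29339 and 40590 regions, and those of the marks between 10219 and 36687. Each region carries a fold over IgG and a significance, the −log10 q-value, which are the values of the authors' peak caller. They depend on the depth of each library, which is unknown here because the files give no read totals. Significance is therefore given as a percentile within its own list, and a region missing from a list was not detected, which does not show that the site is unbound. FLI1 regions were present in all 4 libraries in the gene body with 10 kb either side of 8 of 8 known EWSR1::FLI1 target genes (NR0B1, NKX2-2, CCND1, PRKCB, STEAP1, LIPI, JAK1 and CAV1), as in 56.1% of all protein-coding genes. These 8 were listed with earlier results of these data known, so the count is no independent check.

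The sequences that the results turn on are printed on the plus strand of hg38, with GGAA and its complement TTCC in capitals. The first is a stretch of 128 bases with a run of 12 GGAA units downstream of ETV1, at chr7:13849668-13849795, inside the strongest FLI1 region found near any of the 10 genes. It was singled out after its values were seen. The next 6 are windows of 150 bases around the FLI1 summit of the strongest or start-proximal region of a gene, at chr12:11649193-11649342 (before the ETV6 start), chr12:11855427-11855576 (ETV6 intron), chr17:43536106-43536255 (ETV4 intron), chr3:186109173-186109322 (ETV5 intron at the start), chrX:47650772-47650921 (before the ELK1 start) and chr2:218979999-218980148 (downstream of FEV). All 6 hold a GGAA or TTCC core, which follows from the choice, as windows without a core were left out. Such windows held a core at 18 of the 21 FLI1 sites in all 4 libraries near these genes, against 83.7% genome-wide. The windows of the strongest ELF1 and ERG sites and of the ETV4 start site hold none and are not printed. The last is the stretch of 28 bases around the match to CCGGAAGT in the GABPA promoter of RefSeq (GRCh38.p14), at chr21:25734895-25734922. It was included as the only RefSeq promoter among those of the matched genes with that match, and its capitals mark the 8 matched letters.
ETV1 downstream run: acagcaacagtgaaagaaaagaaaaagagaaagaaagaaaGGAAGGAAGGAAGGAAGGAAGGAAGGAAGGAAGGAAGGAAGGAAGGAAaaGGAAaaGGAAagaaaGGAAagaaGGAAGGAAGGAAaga
ETV6 start: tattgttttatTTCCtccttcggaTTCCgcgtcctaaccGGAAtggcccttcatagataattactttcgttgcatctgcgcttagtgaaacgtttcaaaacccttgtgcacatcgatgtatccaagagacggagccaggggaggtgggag
ETV6 intron: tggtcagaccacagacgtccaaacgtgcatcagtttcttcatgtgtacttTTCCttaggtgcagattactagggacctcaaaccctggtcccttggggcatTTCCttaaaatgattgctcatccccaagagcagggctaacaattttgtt
ETV4 intron: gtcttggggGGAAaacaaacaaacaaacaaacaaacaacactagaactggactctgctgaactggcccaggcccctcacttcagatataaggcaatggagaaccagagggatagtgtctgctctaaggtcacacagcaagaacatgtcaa
ETV5 start: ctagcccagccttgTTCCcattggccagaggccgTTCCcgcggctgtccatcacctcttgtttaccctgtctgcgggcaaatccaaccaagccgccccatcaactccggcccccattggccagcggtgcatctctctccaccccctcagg
ELK1 start: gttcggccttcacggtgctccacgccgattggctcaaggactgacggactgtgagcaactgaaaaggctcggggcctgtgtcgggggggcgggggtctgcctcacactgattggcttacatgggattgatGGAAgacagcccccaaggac
FEV downstream: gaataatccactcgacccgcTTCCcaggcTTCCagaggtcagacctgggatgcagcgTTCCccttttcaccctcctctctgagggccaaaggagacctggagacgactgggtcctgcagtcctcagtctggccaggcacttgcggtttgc
GABPA promoter: cctccgctctACTTCCGGccctggctcc

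FLI1 regions were found near the starts of most of the 10 genes. A start is the first base of any annotated protein-coding transcript, and a region was assigned to it when at least 1 base lay within 1 kb. ETV1, ETV4, ETV5, ETV6, ELK1, ELF1 and GABPA, 7 of 10, had such a region in each of the 4 libraries, against 38.3% of all protein-coding genes. FEV and ETS2 had a start region in some libraries, and ERG had none in any library, which was the case for 40.3% of all genes. Over the gene body with 10 kb either side, 8 of 10 had a region in every library (56.1% of all genes), the eighth being ETS2. The same 8 were counted with 50 kb either side (73.9% of all genes). The 10 genes are not a random draw, they have between 1 and 10 annotated coding starts each, and their 10 kb windows span 24.1 to 301.8 kb, so these shares are given side by side with no test. Using only the annotated gene start left 5 of the 7 genes, without ETV4 and ELF1 (33.7% of all genes). Requiring a −log10 q of at least 10 left the same 5 (25.4% of all genes).

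**Figure D1:**
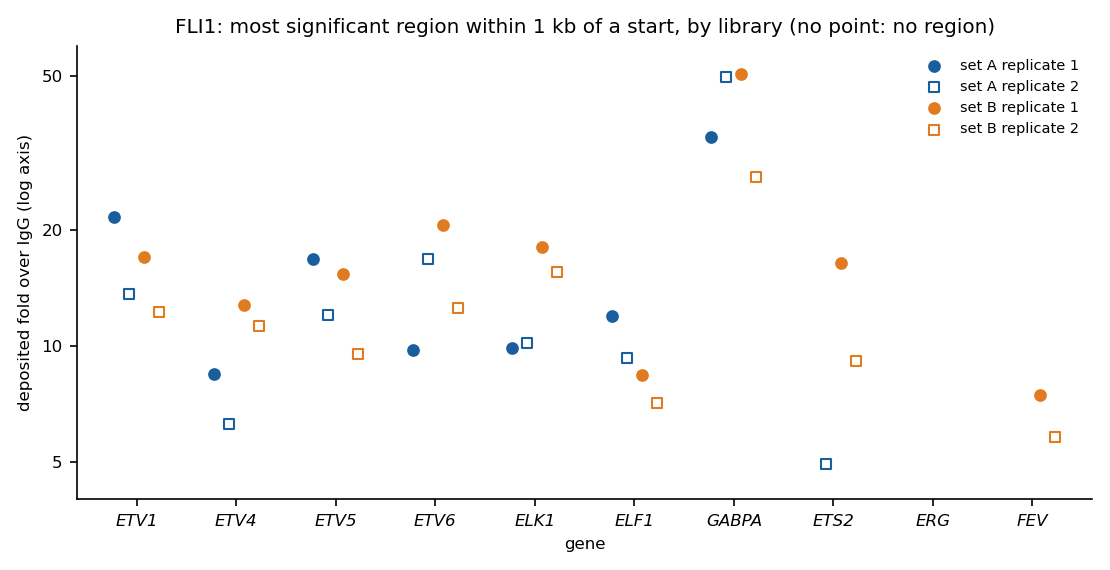
Deposited fold over IgG (vertical log axis) of the most significant FLI1 region within 1 kb of a start of each of the 10 genes (horizontal axis), 1 point per library. Circles are replicate 1 and squares replicate 2, blue is set A and orange set B, and a missing point means no region; GABPA lies between 27.3 and 50.8, and no point is drawn for ERG.

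In all, the 10 kb windows held 37 and 42 FLI1 regions in the set A libraries and 44 and 33 in the set B libraries. The median percentile of these regions was 64.96, 60.5, 48.7 and 52.8 in the same order, so as a group they lay near or somewhat above the middle of their lists. Joined where they overlapped, they formed 53 sites, of which 21 (39.6%) were in all 4 libraries, against 29.3% of the 55109 FLI1 sites of the whole genome. Of the 21 sites, 15 lay in introns of the member gene, and 8 lay within 1 kb of a protein-coding start (41.8% of all sites in 4 libraries). ETV6 alone held 18 of the 53 sites and 8 of the 21, and its window is among the longest. It also held 7 of the 15 intronic sites. The intronic share of all FLI1 sites was not counted. Windows drawn around gene bodies take in introns by design, so the 15 stands without a comparison.

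**Figure D2:**
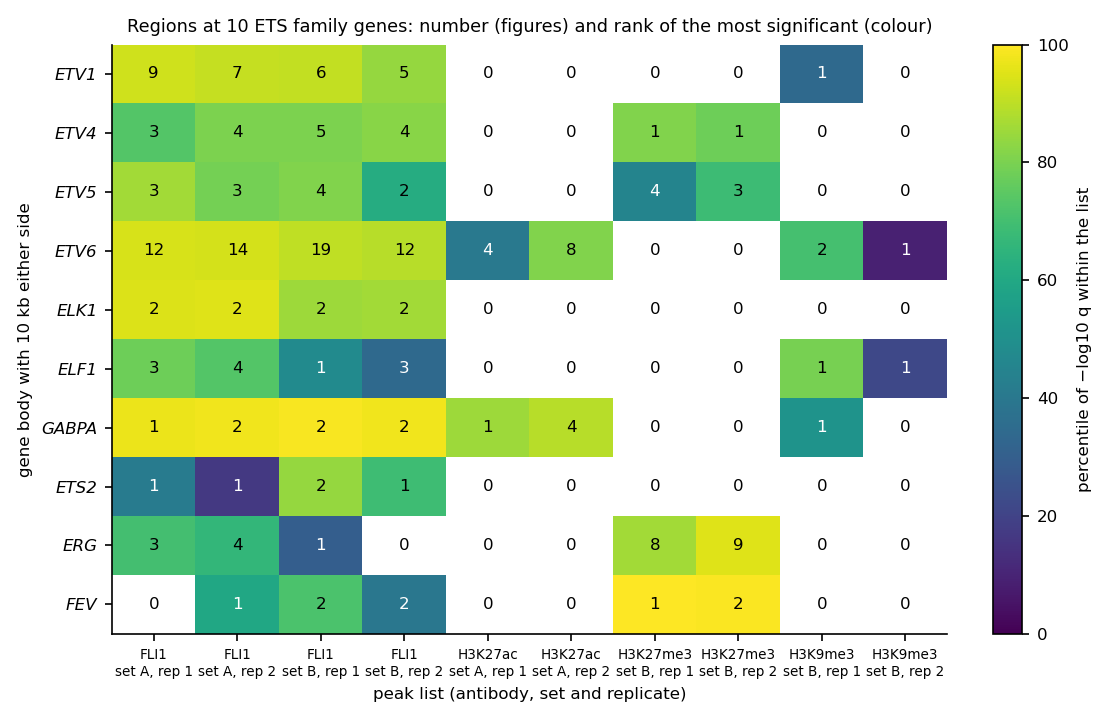
Number of regions (figures in the cells) in each gene body with 10 kb either side, for each of the 10 peak lists (columns) and 10 genes (rows), with colour giving the percentile of −log10 q, within its list, of the most significant region; white means no region. FLI1 columns are filled for most genes, H3K27ac is filled for ETV6 and GABPA, and H3K27me3 for ETV4, ETV5, ERG and FEV.

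ETV1, ETV4 and ETV5 form the PEA3 group, activators that act downstream of growth factor signalling through the MAP kinase cascade. The ETV1 gene (chromosome 7, 13891229 to 13991425, minus strand) had 9 and 7 FLI1 regions in its 10 kb window for set A against 6 and 5 for set B, 6.75 ± 1.71 (SD, n = 4). Its start site, chr7:13988816-13991883, had folds of 21.6 and 13.6 for set A against 17.0 and 12.2 for set B, at percentiles 91.9, 86.2, 91.0 and 84.2. The 4 values overlapped between the sets and all lay in the upper part of their lists. An intronic site at chr7:13908014-13909670 was in all 4 libraries with folds of 24.3, 15.8, 13.2 and 15.0. A further 3 sites of the window were in both set A libraries and in neither of set B, close to that intronic site.

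The region with the highest fold near any of the 10 genes lay outside the 10 kb window of ETV1, between genes. The site, chr7:13846494-13852933, had its summit 141 kb from the annotated ETV1 start, beyond the 3′ end of the gene. Folds were 101.6 and 289 for set A against 51.6 and 37.2 for set B. By significance it ranked 11 and 4 among the 35210 and 40590 regions of set A, and 398 and 520 among the 38221 and 29339 of set B. Set A ranked it higher, and in the set B lists the same stretch was called as separate regions, the stronger at chr7:13848976-13851232 and chr7:13849012-13851087. The GGAA run printed above (chr7:13849708-13849755, 12 units) lies inside both and ends 207 bases from the summit of the library with the highest fold. A run of at least 4 units lay within 250 bp of the summit at 5.72% of all FLI1 sites in 4 libraries, and at 0 of the 21 such sites in the 10 kb windows of the 10 genes. The site also held H3K27ac, with 3 regions in each H3K27ac library whose highest folds were 6.38 and 6.74. H3K9me3 regions lay on its flanks, such as chr7:13843207-13844780 in replicate 2 (fold 6.20) and chr7:13840988-13846381 in replicate 1 (fold 5.64), and in replicate 2 a weak one (fold 4.73) lay inside its edge. Which gene, if any, this site acts on was not measured. No H3K27ac or H3K27me3 region was found within 10 kb of the ETV1 gene body.

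ETV4 (chromosome 17, 43527844 to 43579620, minus strand) had 3 and 4 FLI1 regions for set A against 5 and 4 for set B, 4 ± 0.816 (SD, n = 4). Its annotated gene start carried none, and the site at a start in all 4 libraries, chr17:43545229-43546696, lies at a coding transcript start about 34.2 kb further in. Folds there were 8.43 and 6.28 for set A against 12.8 and 11.2 for set B. Both set B values lay above both set A values, with 2 libraries a set and no test. Folds at the intronic site chr17:43536023-43536690, printed above, were 10.8, 10.2, 13.2 and 16.4, each larger than at the start in the same library. At another intronic site, chr17:43562461-43563625, they were 9.62, 11.9, 10.5 and 10.7, with the sets overlapping. Another site at a coding start of ETV4, chr17:43530299-43531146, was in both set B libraries (folds 4.41 and 8.01) and in neither of set A. DHX8 overlaps ETV4 in the annotation, so an intronic site of ETV4 lies in both genes.

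ETV4 was also the only member with FLI1 in all 4 libraries and H3K27me3 in both libraries within 1 kb of a start, a pairing found at 0.601% of all protein-coding genes. The H3K27me3 regions were chr17:43542544-43546145 (fold 5.06, percentile 81.2) and chr17:43542851-43545771 (fold 5.18, percentile 77.9). The signals overlapped only in part: the set B FLI1 regions (chr17:43545346-43545804 and chr17:43545229-43546656) overlapped H3K27me3 of both libraries, and the set A regions (chr17:43546035-43546696 and chr17:43546230-43546589) lay at or beyond its edge. Of all FLI1 sites in 4 libraries, 0.204% overlapped H3K27me3 of both libraries. Both H3K27me3 regions fell away when a −log10 q of at least 5 was required. At 50 kb either side, ETV4 also counted H3K27ac in both libraries. The regions were chr17:43484022-43484233 in replicate 1 (fold 8.69, percentile 99.1) and chr17:43483432-43483727 in replicate 2 (fold 4.08, percentile 13.4). They did not overlap each other, and both overlapped the FLI1 site chr17:43483401-43485352 at the start of the neighbouring gene DHX8.

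ETV5 (chromosome 3, 186046314 to 186110318, minus strand) had 3 and 3 FLI1 regions for set A against 4 and 2 for set B, 3 ± 0.816 (SD, n = 4). The start site chr3:186109052-186109676, printed above, had folds of 16.8 and 12 for set A against 15.4 and 9.50 for set B, at percentiles 86.2, 79.3, 80.98 and 62.0. Replicate 1 was higher than replicate 2 in both sets, as at the ETV1 start. A site further into the gene, chr3:186107175-186108195, was in 3 libraries with folds of 15.0, 9.67 and 5.31, and was not in the list of set B replicate 2. DGKG overlaps this end of ETV5 in the annotation, so both of these sites also lie in DGKG. H3K27me3 lay upstream of the gene, over DGKG, in 2 positions shared by both libraries: chr3:186113595-186116271 in replicate 1 (fold 4.71) faced chr3:186113559-186114153 (fold 5.01) and chr3:186115554-186116205 (fold 4.61) in replicate 2, and chr3:186118997-186119819 (fold 3.99) faced chr3:186119134-186119380 (fold 5.20). Neither lay within 1 kb of an ETV5 start, and no H3K27ac region was found within 50 kb of the gene.

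ETV6 encodes a repressor of the family and is a frequent partner in translocations in leukaemia. Its gene (chromosome 12, 11649674 to 11895377, plus strand) carried more FLI1 regions than any other member, 12 and 14 for set A against 19 and 12 for set B, 14.3 ± 3.30 (SD, n = 4). Per 100 kb of window this was 5.36, close to ETV1 (5.62), ETV4 (5.57), FEV (5.19) and ELK1 (5.70), against a median of 1.81 over all protein-coding genes. These densities stood between the 80.7th percentile (FEV) and the 83.1st (ELK1) of all genes. The FEV value rests on 0 and 1 regions for set A and 2 and 2 for set B in a window of 24.1 kb. The ELK1 value includes the site at the start of its neighbour UXT. The site before the ETV6 start, chr12:11648453-11650446, had folds of 9.71 and 16.7 for set A against 20.6 and 12.5 for set B. The sets overlapped, and set A replicate 1 was lowest. The printed window there holds CCGGAA, a longer form of the ETS core, which was found at 2 of the 21 sites in 4 libraries and at 7.88% of all such sites.

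The highest mean percentile in ETV6, 86.4, was at the intronic site chr12:11855000-11856669, printed above, 205.8 kb past the start, with folds of 24.5 and 21.3 for set A against 17.2 and 9.57 for set B. A site at chr12:11765349-11767068, 116.8 kb past the start, followed with a mean percentile of 86.3 and had its higher folds in set B (12.7 and 15.3, then 17.8 and 18.5). The intronic site at chr12:11718650-11720481, 69.6 kb past the start, had folds of 16.4, 10.7, 9.07 and 12.9 and was the only one of 8 that overlapped H3K27ac of both libraries. Its H3K27ac regions were chr12:11718885-11719514 (fold 4.74, percentile 40.4) and chr12:11718670-11719122 (fold 5.33, percentile 52.3), in the middle of their lists. The overlap is that of the joined site. The FLI1 regions with folds of 10.7 (set A replicate 2) and 9.07 (set B replicate 1) overlapped neither. A weaker FLI1 region of set A replicate 2 (fold 7.07) overlapped both. H3K27ac numbered 4 and 8 regions over the ETV6 window. They included chr12:11652502-11652765 and chr12:11652358-11652771, beginning 2.83 and 2.68 kb past the start, but none lay within 1 kb of a start in either library. H3K9me3 had a weak region in both libraries towards the 3′ end of the gene, chr12:11866582-11866925 (fold 3.67, percentile 1.09) and chr12:11866464-11866796 (fold 4.31, percentile 9.36).

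**Figure D3:**
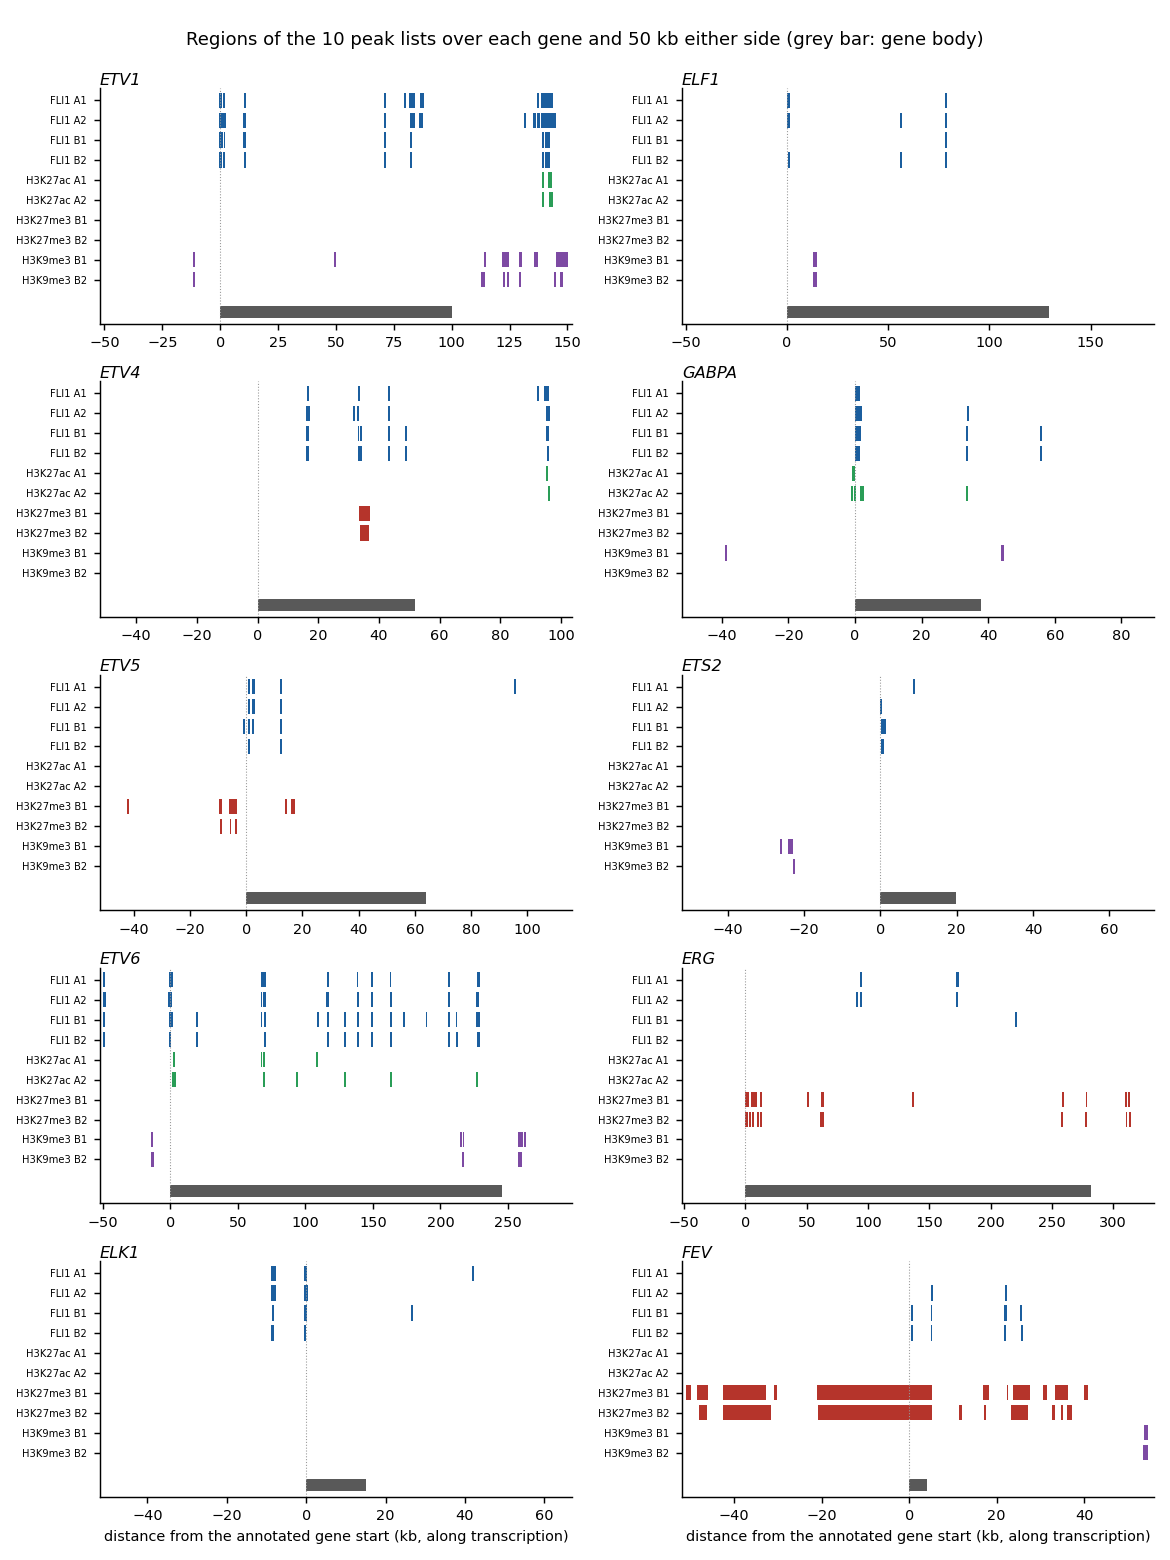
Position of every region of the 10 peak lists around each gene and 50 kb either side (horizontal axis, distance from the annotated gene start in kb along the direction of transcription; rows, the lists, with A1 meaning set A replicate 1). Blue is FLI1, green H3K27ac, red H3K27me3, purple H3K9me3 and the grey bar the gene body; the site downstream of ETV1 stands at 141 kb and the H3K27me3 block over FEV covers the whole gene.

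ELK1 is a ternary complex factor that acts with serum response factor on immediate early genes. The gene (chromosome X, 47635521 to 47650604, minus strand) had 2 FLI1 regions in each of the 4 libraries. The site at its start, chrX:47650231-47651244, printed above, had folds of 9.85 and 10.2 for set A against 18.0 and 15.6 for set B, at percentiles 68.7, 72.9, 85.4 and 86.0. The other site, chrX:47658305-47659468, lies at the start of UXT, a neighbouring gene, at -8.34 kb from the ELK1 start, with folds of 30.7 and 29.5 for set A against 12.3 and 10.0 for set B. Its percentiles were 94.9, 95.0, 80.0 and 74.4. Within the same 4 libraries, therefore, both set B values were higher than both set A values at the ELK1 start and lower at the UXT start. No region of any mark was found within 50 kb of ELK1.

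ELF1 and GABPA belong to subgroups known for broad promoter binding, GABPA being the DNA-binding subunit of GABP, which regulates many genes of mitochondrial function. ELF1 (chromosome 13, 40931924 to 41061440, minus strand) had 3 and 4 FLI1 regions for set A against 1 and 3 for set B, 2.75 ± 1.26 (SD, n = 4). Its only site in all 4 libraries, chr13:40982489-40983273, lies at a coding transcript start inside the gene, 78.7 kb from the annotated start, with folds of 11.9 and 9.29 for set A against 8.37 and 7.12 for set B. Both set A values were above both set B values. At the annotated start itself, chr13:41060973-41061448 had folds of 6.92 and 7.44 in set A and was not listed in set B. Beside it, chr13:41060240-41060703 was listed in both set A libraries (6.58 and 6) and, at a fold of 3.57, in set B replicate 2. ELF1 carried H3K9me3 in both libraries, chr13:41046787-41048840 (fold 5.49) and chr13:41046765-41048395 (fold 4.66), 12.6 and 13.0 kb inside the gene.

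GABPA (chromosome 21, 25734570 to 25772460, plus strand) had the strongest start of the 10. Folds at chr21:25734500-25736618 were 34.7 and 49.9 for set A against 50.8 and 27.3 for set B, at percentiles 97.0, 97.7, 98.9 and 97.8. No other member's start reached a fold above 21.6 in any library. The start is shared with ATP5PF, a subunit gene of the mitochondrial ATP synthase transcribed in the opposite direction, so the signal cannot be assigned to either gene. GABPA was also the only member with FLI1 in all 4 libraries and H3K27ac in both at a start (11.0% of all protein-coding genes). The H3K27ac regions were chr21:25733581-25734674 (fold 6.56) and chr21:25734222-25734768 (fold 5.13), which overlap the upstream edge of the FLI1 site. In replicate 2 a stronger region, chr21:25736018-25737156 (fold 6.54, percentile 89.2), overlapped its downstream edge. The match to CCGGAAGT printed above, searched on both strands, lies inside the FLI1 site but outside the 150 bases around its summit (chr21:25735157). In those bases 0 of the 21 sites in 4 libraries held the match, against 1.30% of all such sites. Among the 19 RefSeq promoters of 300 bases that matched 8 of the 10 genes, this was the only match, and 4.14% of all 35116 RefSeq promoters hold it. A second site, chr21:25768074-25768512 in an intron, was in 3 libraries with folds of 4.81 in set A replicate 2 and 7.76 and 8.10 in set B.

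ETS2 is a close relative of ETS1 and a target of MAP kinase phosphorylation. Its gene (chromosome 21, 38805183 to 38824955, plus strand) had 1 FLI1 region in each set A library and 2 and 1 in set B. The start site chr21:38805240-38806175 was not in the list of set A replicate 1, was weak in set A replicate 2 (fold 4.92, percentile 16.5), and had folds of 16.3 and 9.11 in set B (percentiles 84.0 and 68.9). The region of set A replicate 1 was another, chr21:38813902-38814206, in an intron (fold 6.58). The count of 8 genes in every library above includes ETS2 on these different regions, and it was 7 when the same region had to be in all 4 (53.0% of all genes). No mark had a region within 10 kb of ETS2.

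ERG and FEV are the ETS proteins closest in sequence to FLI1. ERG is best known in endothelial and haematopoietic cells and FEV in serotonergic neurons. ERG (chromosome 21, 38380027 to 38661780, minus strand) is the longest gene of the 10 and had few FLI1 regions, 3 and 4 for set A against 1 and 0 for set B, 2 ± 1.83 (SD, n = 4). At 0.663 per 100 kb it stood at the 31.5th percentile of all genes, below the other 9. All 3 of its sites that were in more than 1 library were in both set A libraries and in neither of set B. The strongest, chr21:38489108-38489557 in an intron, had folds of 9.76 and 8.77. The region of set B replicate 1 was a different one, chr21:38440862-38441241 (fold 6.62).

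The ERG start instead lay in H3K27me3, at chr21:38659219-38661826 (fold 5.55, percentile 86.3) and chr21:38659408-38661800 (fold 6.37, percentile 95.3). The mark numbered 8 and 9 regions over the 10 kb window and covered 5.37% and 2.50% of the gene body, so it was spread in short regions rather than as a block. Another region, chr21:38597995-38600107 in replicate 1 (fold 5.51), faced chr21:38597962-38598364 (fold 6.62) and chr21:38599072-38600597 (fold 4.49) in replicate 2. No H3K27ac and no H3K9me3 region was found within 50 kb of ERG.

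FEV (chromosome 2, 218981087 to 218985184, minus strand) lay whole inside a block of H3K27me3. The block ran over chr2:218979961-219006293 in replicate 1 (26.3 kb, fold 8.23) and chr2:218979970-219006132 in replicate 2 (26.2 kb, fold 7.49), and also overlapped CRYBA2 and CFAP65. It ranked 62 by width and 50 by significance of 21461 regions in replicate 1, and 27 and 67 of 16667 in replicate 2. Among the 10 genes only FEV had the mark over at least 50% of its gene body in both libraries (1.78% of all protein-coding genes). FLI1 regions were listed inside the block. The region at the FEV start, chr2:218984324-218984820, was in both set B libraries (folds 7.44 and 5.81, percentiles 48.7 and 18.0) and in neither set A library. That pattern at a start, both of set B and neither of set A, was found at 5.79% of all genes, and its reverse at 1.10% and at 0 of the 10. The site chr2:218979931-218980181, printed above, lies at the edge of the block and was absent from set A replicate 1, with folds of 7.85 in set A replicate 2 and 12.3 and 7.05 in set B.

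Set A and set B were compared over all members by the presence of sites. Of the 53 sites, 8 were in both set A libraries and in neither of set B, 3 of them at ETV1, 3 at ERG and 1 each at ETV6 and ELF1 (10.3% of all FLI1 sites). Another 5 were in both set B libraries and in neither of set A, 3 at ETV6 and 1 each at ETV4 and FEV (7.15% of all). The 2 set A lists and the 2 set B lists differ in length and share no IgG library, and with 2 libraries a set no difference between the sets was tested.

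Across the marks, H3K27me3 was present at the start of 3 of 10 genes in both libraries (ETV4, ERG and FEV), against 11.2% of all protein-coding genes, and over the 10 kb window of 4, with ETV5 (17.6%), which were the same 4 at 50 kb (29.5%). The other 6 had no H3K27me3 region in the 10 kb window in either library (78.1% of all genes), and 7 had none at a start (86.2%). H3K27ac was present at the start of 1 gene, GABPA (14.9%), over the 10 kb window of 2, with ETV6 (28.2%), and over the 50 kb window of 4, with ETV1 and ETV4 (44.7%). In neither library was H3K27ac listed at the start of the other 9 (71.8% of all genes) or in the 10 kb window of the other 8 (55.0%). H3K9me3 was at the start of 0 of 10 in both libraries (2.21%), was absent there from either library in 10 of 10 (95.9%), and lay over the 10 kb window of 2, ETV6 and ELF1 (25.3%). It was in no library in the 10 kb window of 6 (65.1%), and in both over the 50 kb window of 5 (44.5%). No member had both H3K27ac and H3K27me3 in its 10 kb window. The share of this pairing over all genes was not counted. With shares of 28.2% and 17.6% for the marks taken singly, nothing is read from its absence here. Of the 21 FLI1 sites in 4 libraries, 2 overlapped H3K27ac of both libraries (14.1% of all such sites), 1 overlapped H3K27me3 of both (0.204%), and none H3K9me3 of both (1.10%). When a −log10 q of at least 5 was required, H3K27ac was at 0 starts (3.46% of all genes), H3K27me3 at 1, FEV (4.44%), and H3K9me3 in 0 of the 10 kb windows (7.54%). H3K27ac shares its IgG libraries with set A FLI1, and H3K27me3 and H3K9me3 share theirs with set B FLI1.

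**Figure D4:**
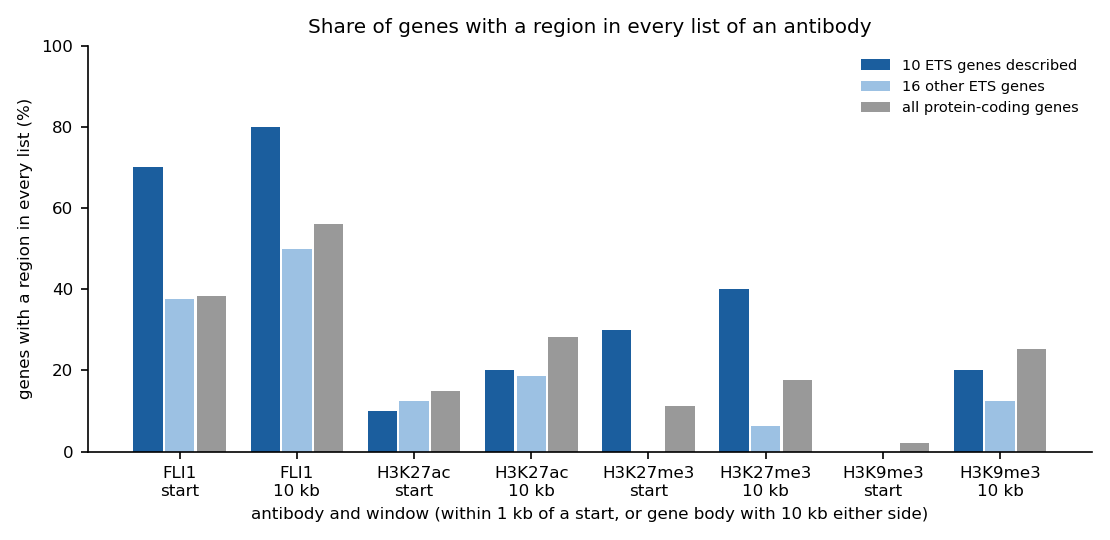
Share of genes (vertical axis, %) with a region in every list of an antibody, within 1 kb of a start or in the gene body with 10 kb either side (horizontal axis), for the 10 genes described (dark blue), 16 other ETS genes (light blue) and all protein-coding genes (grey). FLI1 at the start stands at 7 of 10 against 6 of 16 and 38.3%, and H3K27me3 at the start at 3 of 10 against 0 of 16 and 11.2%; no test was made.

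The rest of the ETS family, 16 genes with ETS1 and FLI1 left out, was counted in the same way. Because the 10 genes described were chosen with earlier results known, the groups are set side by side with no test. FLI1 was at the start in all 4 libraries in 6 of 16 and over the 10 kb window in 8 of 16. H3K27ac was at the start of 2 of 16 in both libraries, and H3K27me3 and H3K9me3 at the start of 0 of 16. H3K27me3 over the 10 kb window was found in 1 of 16, against 4 of the 10 genes described. With 50 kb either side, FLI1 was in all 4 libraries in 14 of 16 against 8 of 10, H3K27ac in both in 11 of 16 against 4 of 10, and H3K27me3 in both in 5 of 16 against 4 of 10. H3K9me3 was in both in 5 of 16 against 5 of 10. In 6 of 16 no FLI1 region was found in the 10 kb window in any library, as in 23.6% of all genes. Each of the 10 had a region there in at least 1 library, as did 76.4% of all genes.

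The gene outside the family with the most similar profile was sought for each member. Likeness was the smallest mean absolute difference, over the 10 lists, of the percentile of the most significant region in the 10 kb window. A list with no region counted as 0, so lists empty for both genes add to the likeness. ETS2 and ELK1 had regions in 4 lists, and ETV6, with the most, in 8. ETV1 was nearest to RASAL3 (1.30 percentile points), ETS2 to TUBA1A (1.38), ETV4 to SOX1 (2.30), FEV to LHX1 (2.66) and ERG to TFAP2B (2.81). ETV6 was nearest to HMGXB3 (3.52), ELF1 to GRK4 (3.94) and ETV5 to CPNE9 (5.10). GABPA was nearest to ENSG00000289694 (1.99), an identifier with no symbol in the annotation. ELK1 was at 0 from UXT because their windows hold the same regions. These are descriptions of 10 lists from 1 cell line. The next gene stood close behind for ETV6 (AP3S1, 3.56) and ETV1 (PPEF1, 1.54), and further off for ETV4 (MYADM, 3.19). A nearest gene therefore need not stand apart from others.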

How the data were processed

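Peaks were called by the authors in each antibody library on its own, with the like-numbered IgG library of its set as control and after removal of duplicates, per the file names. The submitters' processing notes name cutadapt 4.4, Bowtie2, Picard 2.17.11, MACS2 2.1.1 and hg38, with no role or order. The deposited fold is a linear ratio over IgG, and the deposited significance is given as −log10 of the p-value and q-value (lowest −log10 q 2.00). Depth is unknown, and the IgG libraries and reads were not analysed here.

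On the 22 autosomes and X, peaks that overlapped within a list were joined and took the values of the most significant peak. Starts were those of protein-coding transcripts in GENCODE release 44, windows were 1 kb around a start and 10 or 50 kb around a gene body, and 1 shared base counted as overlap. FLI1 sites were regions of the 4 lists chained by overlap. Percentiles are of −log10 q within a list. No test was made. The counting was tested on simulated regions. The rule named all 10 genes, their start regions and, per gene, the site in most libraries with the highest mean percentile. Members and lists were chosen with earlier results of these data known. Since no printed window around a summit held CCGGAAGT, capitals mark the 4-letter core. No column of another sample was present. Python 3.11.15, numpy 2.4.6, pandas 2.3.3 and matplotlib 3.10.9 were used.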

Additional observations from a re-analysis of the deposited data

How the results depend on the processing

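Of 60 alternative counts over 6 results, 51 were within 1.5 times the value reported. Shares of all genes under the same setting stand in parentheses. Requiring a −log10 q of at least 5 left 0 genes with H3K27ac at a start (3.46%), 1 with H3K27me3 there (4.44%) and 0 with H3K9me3 in the 10 kb window (7.54%). At least 10 left 0, 0 and 0 (0.148%, 0.158% and 0.189%). Placing the midpoint inside the window gave 1 gene with H3K27me3 at a start, ERG (6.85%). H3K9me3 in the 10 kb window numbered 4 when 1 library was enough (34.9%), and 4 without replicate 2 (34.2%). Leaving out each library in turn gave 7 to 8 genes for FLI1 at a start (38.8% to 41.1%), 8 to 9 for FLI1 in the 10 kb window (56.8% to 58.6%) and in the 50 kb window (74.3% to 75.8%), 1 to 1 for H3K27ac (18.5% to 24.6%), 3 to 3 for H3K27me3 (11.5% to 13.4%) and 2 to 4 for H3K9me3 (26.1% to 34.2%). Requiring the same region in all 4 FLI1 libraries, chosen after seeing the data, gave 7 genes at a start, at 10 kb and at 50 kb (37.6%, 53.0% and 69.9%). The FLI1 lists hold more regions than the H3K27ac lists, and without read totals their depths cannot be compared. No paired analysis was possible because the results are counts of regions and come from no test.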
